A study of Mus musculus with 6 samples.

Results

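Sorted tumour cells from orthotopic mouse pancreatic ductal adenocarcinoma carried mRNA of most matrix metalloproteases (MMPs), ADAMTS proteases and tissue inhibitors of metalloproteases (TIMPs). The members described here are all genes of the deposited RNA table whose symbol is MMP, ADAMTS or TIMP followed by a number. Of 46 matching rows, 44 had values, 21 MMPs, 19 ADAMTS genes and 4 TIMPs, out of 18180 genes used. Mmp1a and Mmp1b had no value and are not analysed here.

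MMPs and ADAMTS proteases are zinc-dependent enzymes that cut extracellular matrix and cell-surface proteins. MMPs are made as inactive precursors, and as a family they cut collagens, gelatin, laminins, elastin and proteoglycans. ADAMTS proteases are secreted and bind the matrix through thrombospondin repeats, and their members include the main enzymes that cut the proteoglycans aggrecan and versican and those that trim procollagens. TIMPs bind the active site of these enzymes and block them, and Timp3 is the family member known for blocking ADAMTS proteases as well as MMPs. In pancreatic ductal adenocarcinoma, a tumour known for dense collagenous stroma, both tumour cells and stromal cells make these genes.

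The RNA was bulk-sequenced in 3 libraries titled KPSC and 3 titled KPC. All came from C57BL/6 mice bearing tumours grown in the pancreas and collected after about 10 to 14 days. The labels do not spell out KPSC or KPC, the alleles or cell line behind them, the sort markers, the age of the mice or whether tumours were pooled. The genotype field gives the wild type for the KPSC libraries and a Setd2 knockout for the KPC libraries, the reverse of what the extra letter of KPSC would normally stand for. The titles are therefore used as group names, and the direction of a change is tied to them and not to Setd2. Separate animals are not stated either, so the p-values speak of the spread among these 6 libraries, part or all of which may be technical.

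The libraries held 15215066 to 16995401 listed reads in KPSC and 14662710 to 17746969 in KPC. Setd2 (chromosome 9, 110532597 to 110618633), a histone methyltransferase and the gene named in the genotype, had 859, 908 and 1042 normalised reads in KPSC replicates 1, 2 and 3, against 1338, 1099 and 1046 in KPC replicates 1, 2 and 3, and did not pass the test (log2 fold change -0.31, SE 0.12, limma adjusted p = 0.148). A count over the whole gene checks the genotype only if the deletion removes reads, which the labels do not say. The third KPSC library was unlike its partners. Pearson's r of log2 values was 0.949 between KPSC replicates 3 and 1 and 0.955 between replicates 3 and 2, against 0.986 between replicates 1 and 2. Epithelial markers were present, with Epcam at 5306 to 7509.9 in KPSC and 1559 to 2242 in KPC. So were markers of other cells: Ptprc, the leukocyte marker CD45, at 1051 to 1814 in KPSC and 2360.1 to 2786 in KPC, and the fibroblast collagen Col1a1 at 34820.0 to 77259 in KPSC and 50411 to 54822 in KPC. Genes of digestive enzymes made by acinar cells took 0.407% to 19.4% of reads in KPSC libraries and 0.996% to 7.59% in KPC libraries. In bulk RNA, fewer cells of a type and less RNA per cell cannot be told apart.

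Values are read counts divided by a size factor per library, called normalised reads here. Fold changes are KPSC over KPC on the log2(value + 1) scale, and a gene passed where its limma p, adjusted by Benjamini-Hochberg over all 16737 genes tested, was under 0.05. Of the 44 members, 42 reached a value of 1 in 3 or more libraries and were tested, and 6 passed. Mmp28 and Mmp15 were higher in KPSC. Mmp9, Mmp11, Adamts1 and Adamts5 were lower in KPSC. These are 14.3% of the members tested, against 14.4% of all genes tested (7.61% higher, 6.76% lower), so the share of members that passed was near the background. The median log2 fold change was -0.16 over the 42 members and 0.01 over all genes tested. By the authors' deposited table, 8 members had an adjusted p under 0.05, against 16.2% of all genes there, and these were the 6 above with Adamts4, higher in KPSC, and Mmp10, lower in KPSC. Count tests on the recovered reads called 6 of the 36 members that edgeR tested, against 17.3% of all genes it tested, while DESeq2 called 9 members, against 20.2% of the genes it gave an adjusted p.

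**Figure D1:**
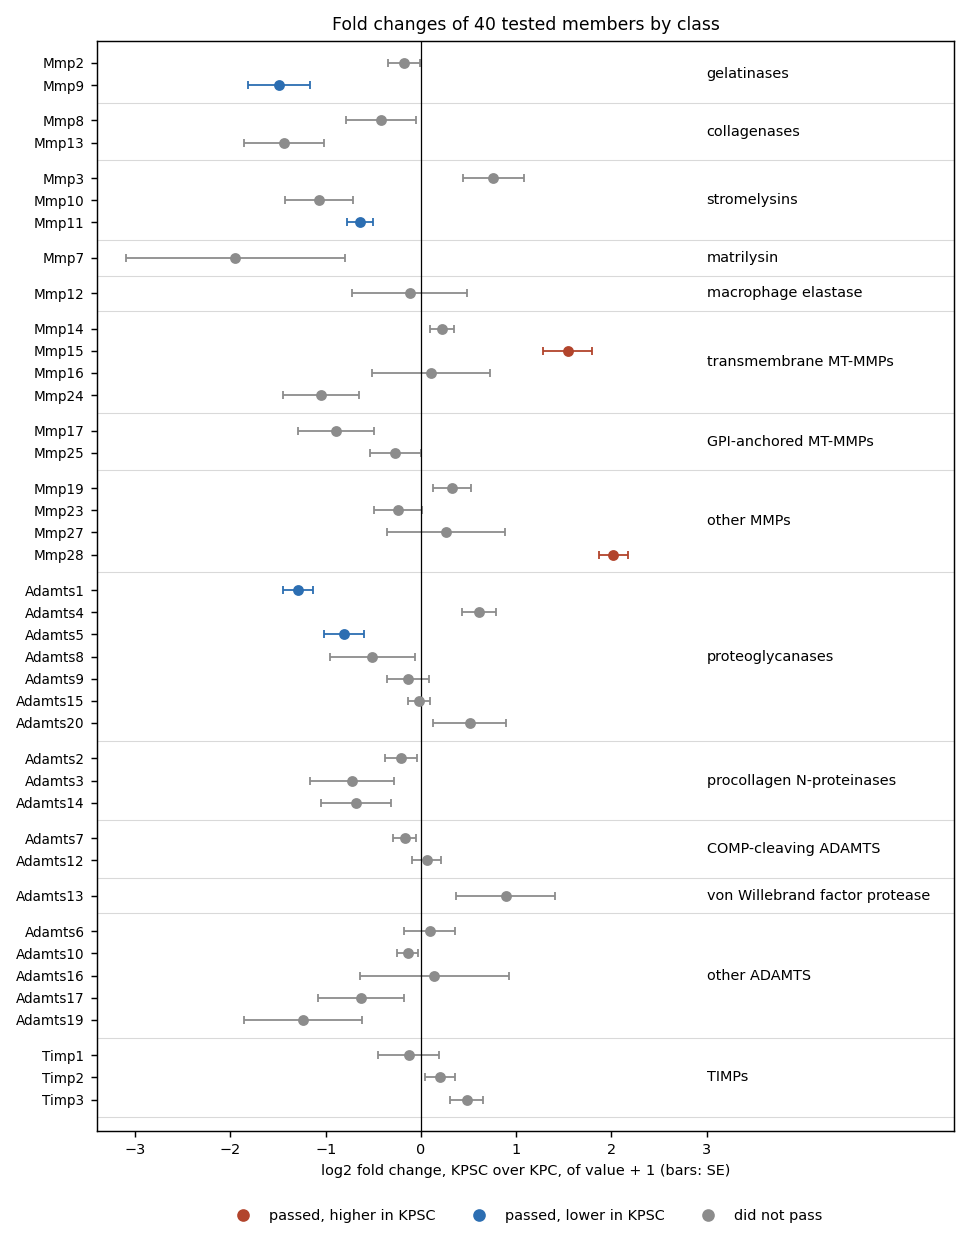
Log2 fold change of KPSC over KPC on the horizontal axis for 40 of the 42 tested members, those with more than 3 reads in some library, with SE as bars, ordered by class down the page. Mmp28 at 2.02 and Mmp15 at 1.54 lie right of 0 and passed, and Mmp9 at -1.49, Adamts1 at -1.29, Adamts5 at -0.81 and Mmp11 at -0.64 lie left of 0 and passed. Mmp7 has the widest bar, and Adamts13 rests on a few reads.

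The promoter windows of the 3 members that passed with every library left out in turn, Mmp28, Mmp15 and Adamts1, are shown because the rest of the account turns on these genes. Each runs from 250 bases before to 50 bases after the RefSeq start (GRCm38.p6). The windows are Mmp28 on the minus strand of chromosome 11 (chr11:83462991-83463290), Mmp15 on the plus strand of chromosome 8 (chr8:95352046-95352345) and Adamts1 on the minus strand of chromosome 16 (chr16:85803064-85803363). Capitals mark the TATA box letters TATAAA, found in the Adamts1 window at position -32 from the start and in neither of the others.

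Mmp28: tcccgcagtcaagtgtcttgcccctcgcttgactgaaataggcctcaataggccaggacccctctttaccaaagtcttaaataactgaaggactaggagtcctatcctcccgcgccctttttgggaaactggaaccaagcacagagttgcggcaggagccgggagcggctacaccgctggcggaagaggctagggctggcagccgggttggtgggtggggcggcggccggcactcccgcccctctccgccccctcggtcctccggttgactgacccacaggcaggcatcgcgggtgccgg
Mmp15: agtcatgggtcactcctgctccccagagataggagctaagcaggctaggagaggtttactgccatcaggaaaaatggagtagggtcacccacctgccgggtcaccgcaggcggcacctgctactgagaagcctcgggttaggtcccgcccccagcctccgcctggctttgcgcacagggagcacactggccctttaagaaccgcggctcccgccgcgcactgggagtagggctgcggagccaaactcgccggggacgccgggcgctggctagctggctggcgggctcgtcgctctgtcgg
Adamts1: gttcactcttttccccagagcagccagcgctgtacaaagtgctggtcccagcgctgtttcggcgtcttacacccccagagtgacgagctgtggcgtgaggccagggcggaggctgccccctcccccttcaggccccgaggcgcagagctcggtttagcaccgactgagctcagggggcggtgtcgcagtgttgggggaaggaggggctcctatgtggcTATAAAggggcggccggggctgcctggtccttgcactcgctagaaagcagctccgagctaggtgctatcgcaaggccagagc

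Another set of members lies side by side on chromosome 9, where 8 MMP genes with values form a cluster. For Mmp13, Mmp3, Mmp10 and Mmp7 of that cluster the stretch from 80 bases before to 10 bases after the RefSeq start is shown (plus strand, GRCm38.p6), since these neighbours share promoter letters while their fold changes lay on both sides of 0. The stretches are chr9:7272434-7272523 for Mmp13, chr9:7445742-7445831 for Mmp3, chr9:7502262-7502351 for Mmp10 and chr9:7692010-7692099 for Mmp7. Capitals mark TATAAA and TGANTCA, where N is any base, a loose form of the letters that AP-1 transcription factors bind.

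Mmp13: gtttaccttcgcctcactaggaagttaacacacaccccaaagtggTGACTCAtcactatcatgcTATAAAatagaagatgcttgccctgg
Mmp3: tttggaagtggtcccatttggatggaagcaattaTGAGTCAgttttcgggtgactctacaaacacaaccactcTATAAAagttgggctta
Mmp10: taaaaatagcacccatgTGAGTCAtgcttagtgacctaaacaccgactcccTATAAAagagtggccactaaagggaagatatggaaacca
Mmp7: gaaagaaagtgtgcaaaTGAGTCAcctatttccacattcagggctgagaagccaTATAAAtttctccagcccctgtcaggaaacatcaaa

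Windows were at hand for 30 of the 44 members (33 windows of 300 bases). Both strands were searched. TGANTCA stood in 18.2% of member windows and in 7.81% of all 32851 promoter windows, and TATAAA in 27.3% and 13.6%. All 6 members with TGANTCA belong to the chromosome 9 cluster, where 6 of 8 genes had it, against 0 of the other 22 members with a window. TATAAA stood in 7 of the 8 cluster genes and in 2 of the other 22 members, Adamts1 and Mmp21. A longer NF-kB motif stood in 0 of 33 member windows and in 1.63% of all windows. The cluster windows had a median GC content of 40.3%, against 64.7% for the windows of the other members. A match is a description of letters and no site was tested.

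The largest fold change among members that passed was that of Mmp28 (epilysin), a secreted MMP with a furin cleavage site, known from skin and other epithelia. Mmp28 (ENSMUSG00000020682, chromosome 11, 83440768 to 83463071) had 2002, 1840.2 and 2279.9 normalised reads in KPSC replicates 1, 2 and 3, against 599, 411 and 508 in KPC replicates 1, 2 and 3. All KPSC libraries lay far above all KPC libraries, and the means were 2041 ± 222 in KPSC and 506 ± 94.1 in KPC (SD, n = 3 each). The log2 fold change was 2.02 (SE 0.15, limma adjusted p = 0.000301). It stayed between 1.88 and 2.15 on leaving out each library, with 1.94 without KPSC replicate 3, and the gene passed in each of these 6 fits. Per kilobase of gene, Mmp28 was at rank 6 of the 44 members in KPSC libraries, with 527 ± 57.4 normalised reads, and at rank 14 in KPC libraries, with 131 ± 24.3.

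Exons of Mmp28 share 466 bases with those of 1700020L24Rik, a protein-coding gene on the opposite strand. Whether the authors' counting used strand is not given in the sources used here, so reads in the shared bases cannot be assigned. The overlapping gene had 698, 621 and 580.3 normalised reads in KPSC replicates 1, 2 and 3, against 152, 135 and 189 in KPC replicates 1, 2 and 3, and also rose in KPSC (log2 fold change 2.0, SE 0.15, limma adjusted p = 0.000326). Mean values were 2041 for Mmp28 and 633 for this neighbour in KPSC, and 506 and 159 in KPC, so Mmp28 had the more reads in either group.

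Mmp15, a transmembrane MMP related to Mmp14, also rose. Mmp15 (ENSMUSG00000031790, chromosome 8, 95352268 to 95375080) had 693, 743 and 616 normalised reads in KPSC replicates 1, 2 and 3, against 238, 156 and 346 in KPC replicates 1, 2 and 3. The lowest KPSC library lay well above the highest KPC library, with means of 684 ± 64.1 in KPSC and 247 ± 95.5 in KPC (SD, n = 3 each). Its log2 fold change was 1.54 (SE 0.26, limma adjusted p = 0.00871), and 1.24 to 1.82 on leaving out each library. The gene passed in all 6 of these fits, with a highest limma adjusted p of 0.0387, and had 1.61 without KPSC replicate 3.

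Epithelial markers moved with both genes. Of the 10 markers in the epithelial list, 7 passed, all higher in KPSC, and their summed level was 115143 to 127007 normalised reads in KPSC libraries against 56199 to 72595 in KPC libraries, without overlap. Whether the rise of Mmp28 and Mmp15 depends on the epithelial level was not tested.

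Adamts1 fell with the smallest adjusted p among members lower in KPSC. This secreted protease cuts versican and aggrecan and is known for roles in blood vessel growth and ovulation. Adamts1 (ENSMUSG00000022893, chromosome 16, 85793827 to 85803113) had 627, 801 and 951 normalised reads in KPSC replicates 1, 2 and 3, against 2045, 1978 and 1727 in KPC replicates 1, 2 and 3. Every KPSC library lay below every KPC library, and KPSC replicate 3 was the nearest to them. Means were 793 ± 162 in KPSC and 1917 ± 167 in KPC (SD, n = 3 each), a log2 fold change of -1.29 (SE 0.16, limma adjusted p = 0.00218). It passed in all 6 fits that left out a library, at -1.43 to -1.13, with -1.43 without KPSC replicate 3.

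Adamts5, known as the main enzyme that degrades aggrecan in mouse cartilage, is the neighbour of Adamts1. Its start lies 98.7 kb from that of Adamts1 on the same strand of chromosome 16 (ENSMUSG00000022894, 85856173 to 85901828). Adamts5 had 146, 175 and 238 normalised reads in KPSC replicates 1, 2 and 3, against 379, 321 and 272 in KPC replicates 1, 2 and 3. The groups did not overlap, but KPSC replicate 3 and KPC replicate 3 were close. The means of 187 ± 47.1 in KPSC and 324 ± 53.8 in KPC (SD, n = 3 each) put it at -0.81 on the log2 scale (SE 0.21, limma adjusted p = 0.0415). Without KPSC replicate 3 the value was -1.0 (limma adjusted p = 0.00677). Without any other single library Adamts5 no longer passed, at adjusted p of 0.066 to 0.132. Within 1 Mb of the start of Adamts1 there were 5 genes averaging 50 or more, and of these Adamts5 was the 1 that passed.

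The other proteoglycan-cutting members did not pass. Adamts4, like Adamts5 an aggrecanase, had 874, 998 and 814 normalised reads in KPSC replicates 1, 2 and 3, against 643, 704 and 437 in KPC replicates 1, 2 and 3. Its groups did not overlap, with KPSC higher, and the log2 fold change of 0.61 (SE 0.18) had a limma adjusted p of 0.0616, which fell to 0.0391 without KPSC replicate 3. Adamts8, Adamts9, Adamts15 and Adamts20, which also cut proteoglycans, had log2 fold changes of -0.51, -0.14, -0.02 and 0.51 and adjusted p of 0.441 or more. Of the 7 genes in this class, 2 passed, both lower in KPSC.

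Among the remaining ADAMTS genes 0 of 12 passed in limma, edgeR or DESeq2, and 0 had an unadjusted limma p under 0.05. Over all 16737 genes tested, 4859 had such an unadjusted p. Adamts2, Adamts3 and Adamts14, which remove the amino-terminal propeptide of procollagens, had log2 fold changes of -0.21, -0.72 and -0.68. The value of Adamts3 rests on 4, 6 and 14 reads in KPSC and 13, 13 and 15 in KPC. Adamts14 had 89.4, 108 and 259.9 normalised reads in KPSC replicates 1, 2 and 3, against 218, 245 and 194 in KPC replicates 1, 2 and 3, so KPSC replicate 3 lay above all KPC libraries while the other KPSC libraries lay below them. Its limma adjusted p was 0.278 with all libraries and 0.00438 without KPSC replicate 3, where the log2 fold change was -1.14. Adamts7 and Adamts12, which cut the cartilage protein Comp, had log2 fold changes of -0.17 and 0.06. Adamts10, a fibrillin-binding member, was the ADAMTS gene with the highest level per kilobase in KPSC, at 207 normalised reads against 228 in KPC, and had a log2 fold change of -0.14. Adamts6, its close relative, had 0.09, and Adamts17, linked to short stature in humans, had -0.63. Adamts17 had only 5, 6 and 11 reads in KPSC and 11, 10 and 18 in KPC. Adamts16 had 14.5, 30.2 and 152.9 normalised reads in KPSC replicates 1, 2 and 3, against 30.0, 60.6 and 28.0 in KPC replicates 1, 2 and 3. KPSC replicate 3 alone was far above the rest for Adamts16, and its log2 fold change was 0.14 with all libraries and -0.80 without that library. Adamts13, which cuts von Willebrand factor, had 2, 2 and 6 reads in KPSC and 2, 1 and 1 in KPC. Adamts18 had 2, 0 and 2 reads in KPSC and 3, 0 and 0 in KPC. Adamts19 had 2, 1 and 2 reads in KPSC and 2, 9 and 9 in KPC. Both rest on few reads, and neither passed (limma adjusted p = 0.767 for Adamts18 and 0.236 for Adamts19).

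**Figure D2:**
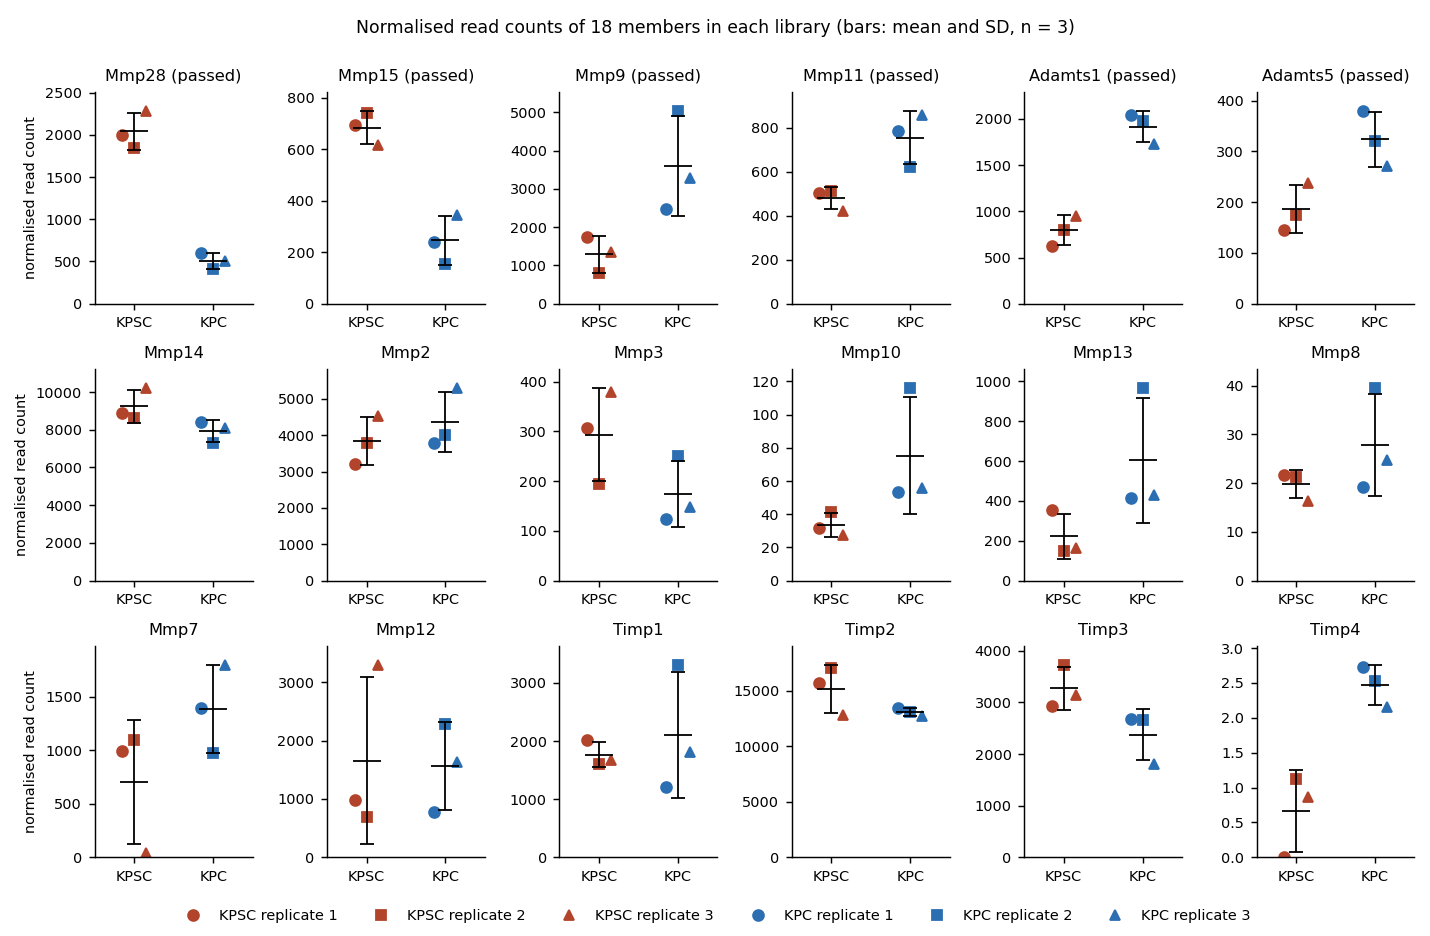
Normalised read counts (vertical axes, from 0) of 18 members in each library, KPSC left and KPC right in every panel, with mean and SD as bars (n = 3 per group). The 6 members in the top row passed and their groups do not overlap, while KPSC replicate 3 lies far from the other KPSC libraries for Mmp7, at 38.0, and Mmp12, at 3299.

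The gelatinases, which cut denatured collagen and basement membrane collagen, differed from each other. Mmp9, abundant in neutrophils and macrophages, had 1739, 789.9 and 1340.3 normalised reads in KPSC replicates 1, 2 and 3, against 2484, 5031 and 3291 in KPC replicates 1, 2 and 3 (ENSMUSG00000017737, chromosome 2, 164940780 to 164955850). The highest KPSC library lay below the lowest KPC library, and KPC replicate 2 had the most of all. With means of 1289.7 ± 476 in KPSC and 3602 ± 1302 in KPC (SD, n = 3 each), Mmp9 fell by 1.49 on the log2 scale (SE 0.33, limma adjusted p = 0.0229). It no longer passed without KPSC replicate 2 (adjusted p = 0.059), without KPC replicate 2 (0.0687) or without KPC replicate 3 (0.0719), and had -1.56 (0.0154) without KPSC replicate 3, all in limma.

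Mmp2, the other gelatinase, which stromal fibroblasts make in quantity, had 3208, 3787 and 4524 normalised reads in KPSC replicates 1, 2 and 3, against 3799, 4001 and 5301 in KPC replicates 1, 2 and 3. The groups overlapped, and its log2 fold change was -0.18 (SE 0.17, limma adjusted p = 0.542). Per kilobase Mmp2 had 1139 ± 196 normalised reads in KPSC and 1295 ± 242 in KPC (SD, n = 3 each) and was at rank 4 of the members in KPSC and rank 5 in KPC. Without KPC replicate 3, the library highest in Mmp2, the log2 fold change was -0.04.

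Leukocyte markers moved with Mmp9. Ptprc fell in KPSC (log2 fold change -0.93, limma adjusted p = 0.0176), as did Cxcr2, a chemokine receptor of neutrophils (-1.34, 0.00836), and Csf1r, a receptor of macrophages (-0.50, 0.0166). The pan-leukocyte list summed to 11548 to 15351 normalised reads in KPSC and 16539 to 20106 in KPC without overlap, and 3 of its 8 genes passed, all lower. The neutrophil list summed to 3798 to 6022 in KPSC and 5846 to 13346 in KPC, with 3 of 12 genes passing, all lower, and 3 others above 0 that did not pass (highest Ly6g, at 1.81 with limma adjusted p = 0.248). The macrophage list summed to 50967 to 60332 in KPSC and 57658 to 70388 in KPC, with 4 of 14 passing, all lower, and 4 others above 0 that did not pass (highest Cd163, at 0.54 with limma adjusted p = 0.435). The neutrophil marker S100a8 had 1168, 592 and 854 normalised reads in KPSC against 618, 2855 and 1304 in KPC and did not pass, and KPC replicate 2 was highest for S100a8 as for Mmp9.

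With the mean level of the pan-leukocyte list as a covariate, the log2 fold change of Mmp9 was -0.72 (limma adjusted p = 0.59), and Mmp15 (1.38, 0.248), Adamts1 (-1.08, 0.145), Mmp11 (-0.92, 0.158) and Adamts5 (-0.59, 0.54) did not pass either. Mmp28 passed in that fit, at 2.04 (adjusted p = 0.028), as did Mmp12 (2.51, adjusted p = 0.0184). Since the leukocyte level itself separated the groups, group and leukocyte level cannot be told apart for these genes.

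The collagenases, which open the triple helix of fibrillar collagen, did not pass. Mmp13, the main collagenase of this type in mice, had 354, 146 and 164 normalised reads in KPSC replicates 1, 2 and 3, against 415, 967 and 430.2 in KPC replicates 1, 2 and 3. The groups did not overlap, though KPSC replicate 1 came close to KPC, and the spread within KPC was wide. Its log2 fold change was -1.44 (SE 0.42, limma adjusted p = 0.0565), and it passed without KPSC replicate 1 (-1.84, 0.0279). Mmp8, the collagenase of neutrophil granules, was low, at 21.7, 21.2 and 16.4 normalised reads in KPSC replicates 1, 2 and 3, against 19.1, 39.5 and 24.8 in KPC replicates 1, 2 and 3. Its groups overlapped and the log2 fold change was -0.42 (SE 0.37, limma adjusted p = 0.511).

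Of the stromelysins, Mmp11 passed. Mmp11, an MMP activated by furin inside the cell and known from stroma around carcinomas, had 502, 513 and 423 normalised reads in KPSC replicates 1, 2 and 3, against 786, 621 and 855 in KPC replicates 1, 2 and 3 (ENSMUSG00000000901, chromosome 10, 75923222 to 75936496). The groups did not overlap, and means of 479 ± 49.0 in KPSC and 754 ± 120.4 in KPC (SD, n = 3 each) gave a log2 fold change of -0.64 (SE 0.14, limma adjusted p = 0.0244). It did not pass without KPSC replicate 1 (0.059), KPSC replicate 2 (0.0571), KPC replicate 1 (0.083) or KPC replicate 3 (0.0852), and it was -0.56 (0.03) without KPSC replicate 3. Mmp11 shares 155 exonic bases with Chchd10, a mitochondrial protein gene on the opposite strand, which did not pass (log2 fold change 1.09, limma adjusted p = 0.0635).

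Mmp3 and Mmp10, secreted stromelysins that cut proteoglycans and laminin and activate other MMPs, lay on opposite sides of 0. Mmp3 had 307, 193 and 380.0 normalised reads in KPSC replicates 1, 2 and 3, against 125, 249.8 and 149 in KPC replicates 1, 2 and 3. KPC replicate 2 lay above KPSC replicate 2, so the groups overlapped, and the log2 fold change was 0.76 (SE 0.32, limma adjusted p = 0.165). Mmp10 had 31.4, 41.3 and 27.6 normalised reads in KPSC replicates 1, 2 and 3, against 53.7, 116 and 56.1 in KPC replicates 1, 2 and 3. All KPSC libraries were below all KPC libraries for Mmp10, with a log2 fold change of -1.07 (SE 0.36, limma adjusted p = 0.0908).

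Mmp7 (matrilysin), a small MMP without a hemopexin domain that epithelial and pancreatic tumour cells are known to make, varied more within KPSC than any other member with reads in all 3 KPSC libraries. It had 990.2, 1093 and 38.0 normalised reads in KPSC replicates 1, 2 and 3, against 1394, 975 and 1797 in KPC replicates 1, 2 and 3. The highest KPSC library held 28.8 times the lowest, against 1.84 times in KPC. The log2 fold change was -1.95 (SE 1.15, limma adjusted p = 0.315), and -0.37 (0.275) without KPSC replicate 3. Mmp7 passed in limma with the acinar level (-2.65, adjusted p = 0.00107) or the fibroblast level (-2.18, 0.00646) in the fit, and had -6.11 (0.0956) with the leukocyte level. Mmp12, the macrophage elastase, had 977, 688 and 3299 normalised reads in KPSC replicates 1, 2 and 3, against 771, 2287 and 1629 in KPC replicates 1, 2 and 3. Here KPSC replicate 3 was the highest of all libraries and the other KPSC libraries were among the low ones. Its log2 fold change of -0.12 (SE 0.60, limma adjusted p = 0.921) became -0.79 (0.181) without KPSC replicate 3.

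Along the chromosome 9 cluster, 0 of the 7 tested MMP genes passed in limma or edgeR, and DESeq2 called Mmp13 and Mmp10. Unadjusted limma p was under 0.05 for 3 of the 7, against 4859 of all 16737 genes tested. The log2 fold changes of these 7 had a median of -0.42. Mmp13, Mmp10 and Mmp7, which carry TGANTCA in the stretches above, had values of -1.44, -1.07 and -1.95, while Mmp3 with the same letters had 0.76. Mmp27, a member of the same cluster that averaged 5.89 normalised reads in KPSC and 5.13 in KPC, had 0.26 (limma adjusted p = 0.826). Mmp20, the enamel protease, was also in the cluster and had 0, 0 and 0 reads in KPSC and 0, 1 and 1 in KPC. Of the genes for subunits of AP-1, Fos passed as higher in KPSC, as given below, and the part of AP-1 in these values was not tested.

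**Figure D3:**
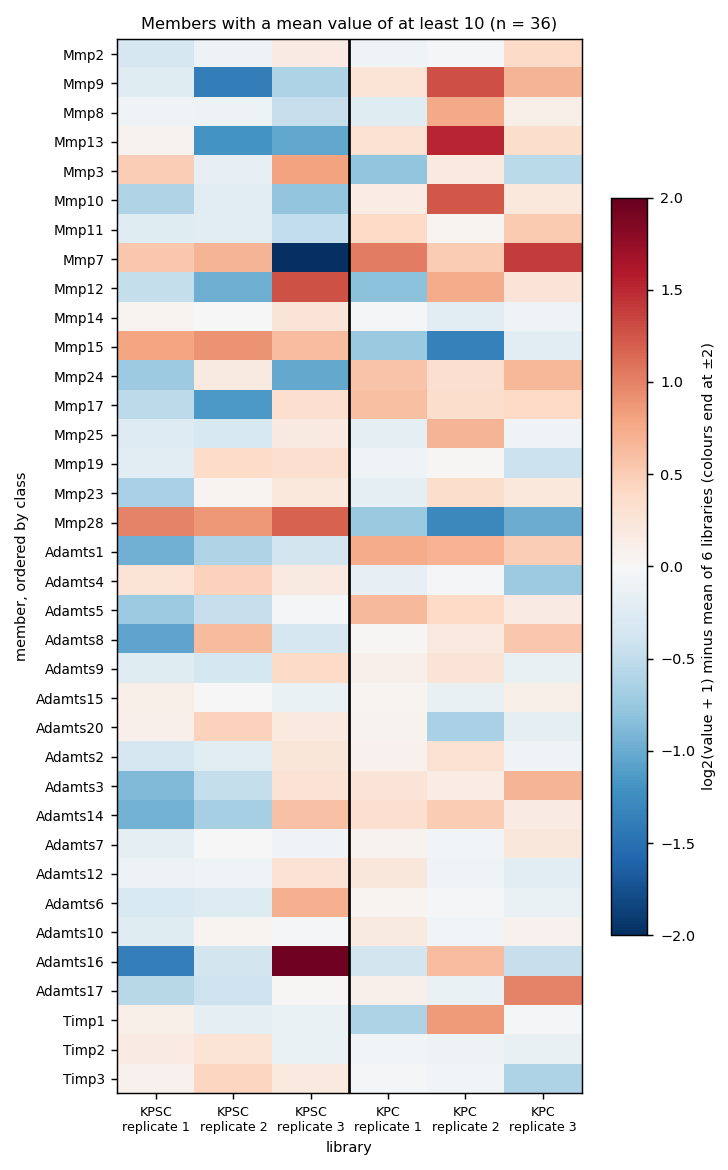
Log2(value + 1) of 36 members that averaged 10 or more, minus the mean of the 6 libraries, as colour from -2 to 2. Rows are members by class and columns are the KPSC libraries followed by the KPC libraries. Mmp28 and Mmp15 are red in all KPSC columns and Adamts1 blue, and KPSC replicate 3 is the darkest cell of the Mmp7 row, at -4.13, and of the Adamts16 row, at 1.94.

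Of the 6 membrane-type MMPs, Mmp15 passed and the other 5 did not. Mmp14, which activates Mmp2 at the cell surface together with Timp2, was the MMP with the highest level per kilobase, at 1549.5 ± 143 normalised reads in KPSC and 1329.8 ± 95.8 in KPC (SD, n = 3 each). It had 8870.4, 8623 and 10212 normalised reads in KPSC replicates 1, 2 and 3, against 8391, 7288 and 8097 in KPC replicates 1, 2 and 3. The groups did not overlap but lay close, and the log2 fold change was 0.22 (SE 0.13, limma adjusted p = 0.314). Mmp16 and Mmp24, transmembrane members known from the nervous system, had log2 fold changes of 0.11 and -1.05 (limma adjusted p = 0.933 and 0.132). Mmp16 had only 2, 4 and 14 reads in KPSC and 7, 3 and 6 in KPC. Mmp24 averaged 13.6 normalised reads in KPSC and 27.3 in KPC without overlap. It shares 637 exonic bases with BC029722 on the opposite strand, which fell (log2 fold change -0.51, limma adjusted p = 0.019). Mmp17 and Mmp25, held in the membrane by a lipid anchor, had log2 fold changes of -0.89 and -0.27 and did not pass, and Mmp17 passed without KPSC replicate 3 (-1.28, limma adjusted p = 0.029). Mmp19 had 0.33, and Mmp23, a membrane protein with an unusual cysteine-rich domain, had -0.24. Mmp21, known for a role in left-right patterning of the embryo, had 0, 0 and 0 reads in KPSC and 4, 1 and 0 in KPC and was not tested.

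Timp2 and Timp1 had the highest levels per kilobase of all members. Timp2 had 3899 ± 553 normalised reads per kilobase in KPSC and 3363 ± 100.6 in KPC, and Timp1 had 1989.9 ± 239.5 in KPSC and 2372 ± 1222 in KPC (SD, n = 3 each). Of the 4 inhibitors 0 passed in limma, edgeR or DESeq2. Only 1, Timp3, had an unadjusted limma p under 0.05, as had 4859 of all 16737 genes tested. Timp2, which blocks MMPs and also assists the activation of Mmp2, had 15669, 17069 and 12839 normalised reads in KPSC replicates 1, 2 and 3, against 13473, 13139.6 and 12692 in KPC replicates 1, 2 and 3. KPSC replicate 3 lay within the KPC range, and the log2 fold change was 0.20 (SE 0.16, limma adjusted p = 0.462). Timp1, an inducible inhibitor often raised in inflamed and tumour tissue, had 2009, 1611 and 1681 normalised reads in KPSC replicates 1, 2 and 3, against 1203, 3309.7 and 1807 in KPC replicates 1, 2 and 3. KPC replicates 1 and 2 were the lowest and the highest of all libraries. The log2 fold change of Timp1 was -0.13 (SE 0.32, limma adjusted p = 0.831), and 0.25 without KPC replicate 2.

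Timp3, the inhibitor that stays bound to the matrix, had 2935, 3727 and 3144 normalised reads in KPSC replicates 1, 2 and 3, against 2673, 2658 and 1797 in KPC replicates 1, 2 and 3. All KPSC libraries lay above all KPC libraries, but the lowest KPSC library was close to KPC, and the log2 fold change of 0.48 (SE 0.17) did not pass (limma adjusted p = 0.112). Exons of Timp3 share 1733 bases with those of Syn3, a synapsin gene on the opposite strand that averaged 10.4 normalised reads in KPSC and 23.4 in KPC. Timp4, an inhibitor best known from heart and brain, had 0, 1 and 1 reads in KPSC replicates 1, 2 and 3, against 3, 3 and 2 reads in KPC replicates 1, 2 and 3. It was close to absent from the reads of either group, and no fold is given.

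**Figure D4:**
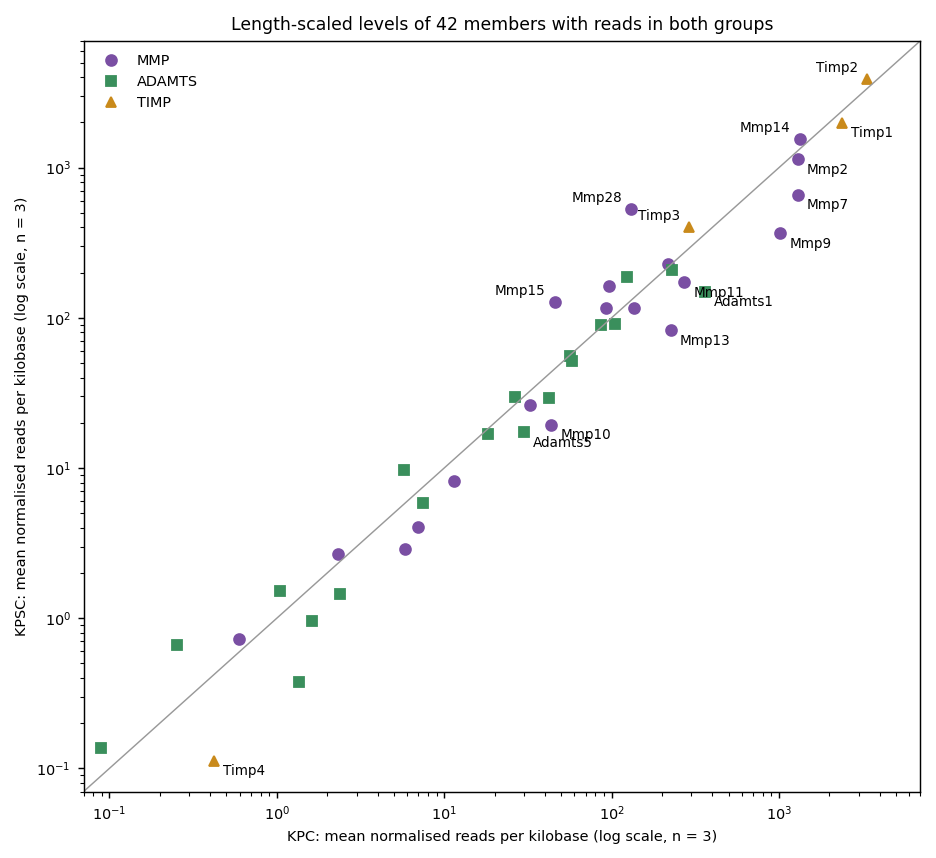
Mean normalised reads per kilobase of gene length in KPSC (vertical axis) against KPC (horizontal axis), both on a log scale, for the 42 members with reads in both groups (n = 3 per group). The grey line marks equal levels. Timp2, Timp1 and Mmp14 are at the top, Mmp28 and Mmp15 lie above the line, and Mmp9, Mmp13 and Adamts1 lie below it.

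Per kilobase of gene, the 4 TIMPs summed to 6291 ± 621 normalised reads in KPSC and 6027 ± 1226 in KPC (SD, n = 3 each). Timp2 made up 61.8% ± 3.55 of that sum in KPSC and 57.3% ± 11.04 in KPC. The 21 MMPs summed to 5348, 5196 and 5394 in KPSC replicates 1, 2 and 3, against 5639, 6326 and 6819 in KPC replicates 1, 2 and 3. These sums did not overlap, with KPSC lower, but the separation rests on Mmp7, which did not pass, and also on Mmp9, which passed. Mmp7 gave 927, 1023 and 35.6 of the sums in KPSC replicates 1, 2 and 3, against 1305, 913 and 1683 in KPC replicates 1, 2 and 3. With Mmp7 left out, the MMP sums of the groups overlapped, and so they did with Mmp9 left out instead. Mmp14 and Mmp2 together held 50.6% ± 5.59 of the MMP sum in KPSC and 42.01% ± 3.53 in KPC. The gelatinases summed to 1503 ± 194 in KPSC and 2313 ± 423 in KPC. The ratio of the MMP sum to the TIMP sum was 0.805, 0.781 and 0.968 in KPSC replicates 1, 2 and 3, against 1.097, 0.852 and 1.24 in KPC replicates 1, 2 and 3, and the groups overlapped. The 19 ADAMTS genes summed to 945 ± 116 in KPSC and 1156 ± 84.3 in KPC. No test was made on these sums.

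Over the 42 tested members, the KPSC and KPC libraries did not overlap for 16 (38.1%), against 34.8% of all genes tested. Of these, 7 were higher and 9 lower in KPSC. KPSC replicate 3 was the highest library for 12 of the 42 members and the lowest for 5, against 22.8% and 20.3% of all genes. KPSC replicate 1, the library with the largest share of acinar reads, was the lowest for 15 of the 42 members and the highest for 0, against 16.9% and 18.6% of all genes. The fibroblast list summed to 123262 to 247276 normalised reads in KPSC and 152520 to 176650 in KPC, with KPSC replicate 1 lowest and KPSC replicate 3 highest. The endothelial list overlapped too, at 3758 to 5482 in KPSC and 3183 to 5185 in KPC, with Pecam1 at 671 to 1178 in KPSC and 649 to 1051 in KPC.

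**Figure D5:**
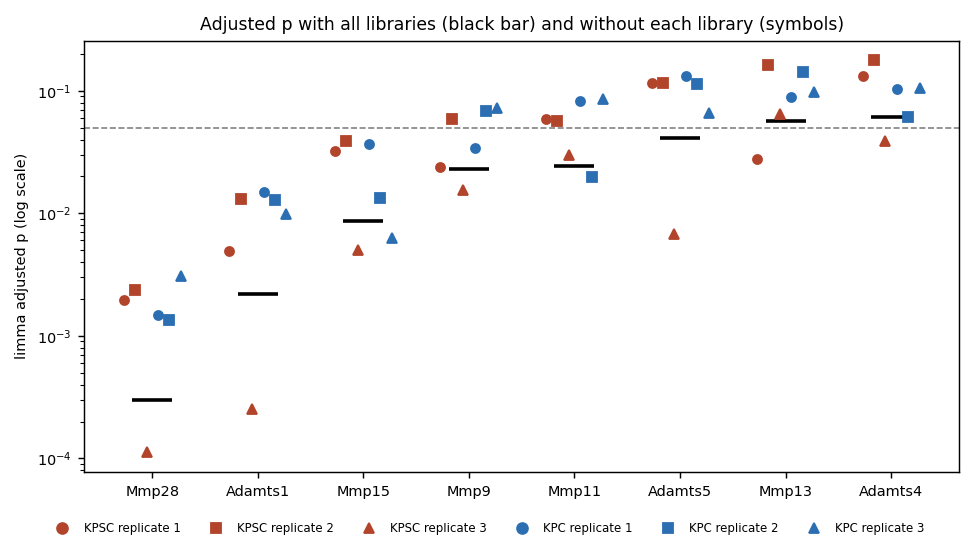
Limma adjusted p (log scale) of 8 members with all libraries (black bars) and without each library (symbols named in the legend). The dashed line is 0.05. All symbols of Mmp28, Adamts1 and Mmp15 lie below the line, and those of Mmp9, Mmp11 and Adamts5 lie on both sides of it.

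Genes that act with these proteases were taken from 5 lists of 72 tested genes. Of them 13 were higher and 5 lower in KPSC, 25.0% against 14.4% of all genes, and their median log2 fold change was 0.05. The lists were chosen with results of these data known, so their counts are descriptions. In the list of activators and regulators, 2 of 16 rose and 1 fell. Plau, the urokinase that makes plasmin, an activator of MMP precursors, had 674, 762 and 748 normalised reads in KPSC against 387, 578 and 403 in KPC (log2 fold change 0.70, limma adjusted p = 0.0277, lost on leaving out 4 of the 6 libraries). Cav1, the caveolae protein, rose by 1.06 (0.00754), and Serpine2, an inhibitor of plasminogen activators and thrombin, fell by 0.71 (0.00829). Of 12 ADAM genes, membrane-bound relatives known for shedding surface proteins, Adam9 rose by 0.50 (0.0362) but passed in 0 of the 6 fits that left out a library. Adamdec1, an ADAM-like protease of macrophages and dendritic cells, fell to 6.04, 6.70 and 25.0 normalised reads in KPSC, against 200.1, 115 and 163 in KPC (log2 fold change -3.80, limma adjusted p = 0.00379).

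ADAMTS-like proteins resemble ADAMTS proteases but lack the catalytic domain, and 5 of 7 passed. Adamtsl5 rose (log2 fold change 1.08, limma adjusted p = 0.00471), with 674, 866 and 981 normalised reads in KPSC against 345, 408 and 427 in KPC. Papln rose by 1.66 (0.0375), with 14.5 to 32.0 normalised reads in KPSC and 5.39 to 8.19 in KPC, and passed in 1 of the 6 fits that left out a library. Adamtsl4, a fibrillin-binding protein needed for the lens suspension, fell by 0.63 (limma adjusted p = 0.00419) and passed in all 6. Adamtsl1 and Thsd4 fell by 0.95 and 0.56 (0.0287 and 0.0346) and passed in 2 and 1 of the 6.

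Of 23 matrix substrates, 5 rose and the other 18 did not pass. Lamb3, a chain of the laminin under epithelia, had 2061, 2176 and 2637 normalised reads in KPSC against 239, 286 and 280.4 in KPC (log2 fold change 3.08, SE 0.13, limma adjusted p = 4.26e-05). Vcan (versican), the proteoglycan that Adamts1, Adamts4 and Adamts5 cut, had 3665, 3640.2 and 2954 normalised reads in KPSC against 1178, 979.9 and 801 in KPC, or 1.80 on the log2 scale (SE 0.16, limma adjusted p = 0.000551). Between groups, Vcan was higher in KPSC, where Adamts1 and Adamts5 were lower. Adamts4 lay on the same side as Vcan, at 0.61 on the log2 scale, but did not pass. Within KPC, Vcan, Adamts1 and Adamts5 all declined from replicate 1 to replicate 3. Within KPSC, Vcan declined in that order while Adamts1 and Adamts5 rose. A link between Vcan and these proteases was not tested. Comp, cut by Adamts7 and Adamts12, rose by 4.04 (0.00625), and Eln (elastin), cut by Mmp12, by 0.53 (0.0353), though Eln passed in 2 of the 6 fits that left out a library. Fn1, Tnc, Dcn, Bgn and Fbn1 did not pass.

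Of 14 genes for AP-1 subunits and for ETS and RUNX factors, which are known to act at MMP promoters, 3 rose and the other 11 did not pass. Elf3, an epithelial ETS factor, had 1753, 2019 and 2044 normalised reads in KPSC against 739, 961 and 1067 in KPC (log2 fold change 1.08, limma adjusted p = 0.00341). Fos, an AP-1 subunit induced within minutes of a stimulus, had 530.1, 649 and 1018 normalised reads in KPSC against 250.1, 421 and 269.6 in KPC (1.21, 0.026), and Runx1 rose by 0.62 (0.0149). Fos and Runx1 each passed in 3 of the 6 fits that left out a library. Jun, the usual partner of Fos, stood at -0.16 (limma adjusted p = 0.26). When the fit also held the leukocyte level, 5 of the 18 genes that had passed in these lists still passed in limma, while calls over all genes numbered 282 in that fit (1.68%) against 2406 without the covariate (14.4%). Among those that still passed were Lamb3 (adjusted p = 0.00195), Vcan (0.0421), Adamtsl5 (0.0433) and Elf3 (0.0442).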

How the data were processed

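RNA of sorted tumour cells was sequenced after TruSeq library preparation, per the labels' protocols. Build mm10 and CASAVA 1.7 come from the submitters' processing notes, while aligner, counter, annotation and strandedness were not given in the sources used here. The authors deposited a signal per gene and library that behaves as a read count divided by a size factor. Multiplied back, 100.0% of values gave whole reads, to a tolerance of 0.01. The authors also deposited p-values and adjusted p-values, quoted as their deposited table. Of 25450 rows, 18185 had values, and 5 whose symbols had lost letters were left out.

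The test was limma 3.58.1 (eBayes with trend) in R 4.3.3 on log2(value + 1), without covariates, for genes reaching 1 in 3 or more libraries, with p-values adjusted by Benjamini-Hochberg and a threshold of 0.05. The fold changes of low genes are understated on that scale. Libraries were grouped by title, 3 in each group, and all pairs of libraries differed by more than sampling noise (lowest chi-square per degree of freedom 31.7). The alternatives were pseudocounts of 0.5 and 5, no filter and a filter at 10, library size and TMM scaling, edgeR 4.0.16, DESeq2 1.42.0 and limma-voom on recovered reads, a replicate block, leaving out each library, and acinar, leukocyte and fibroblast levels as covariates. The limma and count scripts were tested on simulated counts. Members, gene lists and alternatives were chosen with earlier results of these data known.

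Values in every library are given for members that passed and for a fixed set of MMPs and for the TIMPs, up to 3 genes that passed, of smallest adjusted p, were named per pathway list and direction, and the others (Adamts4, Adamts14 and Adamts16 with their libraries, Comp, Eln and the substrates named as not passing, Jun, and overlapping genes) were chosen after their values were seen. Levels per kilobase used the deposited gene length. Overlaps came from GENCODE M21, which shares start and end with 43 of the 44 members, and promoter windows from RefSeq (GRCm38.p6). Reads in bases that overlapping genes share cannot be assigned to either, and some genes that enter the counts are not reported here by name. Tables and figures were made with Python 3.11.15, pandas 2.3.3 and matplotlib 3.10.9.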

Additional observations from a re-analysis of the deposited data

How the results depend on the processing

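Mmp28 passed in all 19 alternatives (log2 fold change 1.83 to 2.15, highest adjusted p 0.028), and Mmp15 and Adamts1 in 18, each missing it with the leukocyte level as a covariate. Mmp9 passed in 14, Mmp11 in 13 and Adamts5 in 11 of 19. Members higher in KPSC numbered 2 in the reported fit and 4 with the acinar level as a covariate, and 2 to 3 on leaving out each library. Members lower in KPSC numbered 4, but 0 with the leukocyte level and 7 with the fibroblast level as a covariate, and 1 to 6 on leaving out each library. Calls over all genes moved the same way, from 14.4% of genes in the reported fit (6.76% lower in KPSC) to 1.68% (0.711% lower) with the leukocyte level, 19.7% (9.63% lower) with the fibroblast level and 21.3% with the acinar level. Pathway genes higher in KPSC numbered 13, but 5 by library size alone, 21 with the acinar level, 5 with the leukocyte level, and 7 to 12 on leaving out each library. Pathway genes lower in KPSC numbered 5, but 8 by DESeq2, 8 with the acinar level, 0 with the leukocyte level, 8 with the fibroblast level, and 3 to 9 on leaving out each library. Over all genes, library size alone moved the median log2 fold change to -0.18, so its calls lean lower (380 higher and 898 lower, against 1274 and 1132), and Adamts5 was lost there (-1.0, adjusted p = 0.074) and Mmp13 gained (-1.64, 0.0228). Of the 42 tested members, 19 changed sign under 1 or more alternatives, none of them among the 6 that passed. These were 13 members with the leukocyte level, 6 on leaving out KPSC replicate 3 and 4 with library size alone. Members whose values are given per library and that changed sign were Mmp12 (edgeR 0.09, DESeq2 0.08, acinar level 0.16, leukocyte level 2.51, where it passed with adjusted p = 0.0184, and -0.79 to 0.34 on leaving out each library), Timp1 (leukocyte level 0.41, and -0.48 to 0.25 on leaving out each library), Timp2 (leukocyte level -0.16), Mmp2 (leukocyte level 0.30), Adamts14 (highest of all alternatives 0.47) and Adamts16 (lowest -0.80, highest 2.63). The cause of these changes was not tested.

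Same-numbered libraries deviated from their group means with correlations of -0.045, -0.178 and -0.28, so the numbers do not pair them. A replicate block gave 2 members higher and 1 lower, 8 pathway genes higher and 4 lower, and 1014 calls over all genes against 2406. No KPSC library correlated best with its own number.

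With 3 libraries a group, some members rest on a few reads (among them Timp4, Adamts13, Adamts18, Adamts19, Mmp20 and Mmp21). For these, not passing or not being tested does not show that the groups are alike.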

Other observations

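Genes around Mmp9 on chromosome 2 leaned lower in KPSC. Of 33 genes that average 50 or more normalised reads and start within 1 Mb of Mmp9, 8 fell and none rose by limma, with a median log2 fold change of -0.28, against 0.07 for 956 genes of the chromosome. Over all genes tested, which include genes averaging under 50, 6.76% fell and 7.61% rose by limma. With the filter at 10 in at least 3 libraries, 8.21% fell and 9.26% rose. Slc12a5, a neuronal chloride transporter that starts 20.0 kb from Mmp9, fell by 1.93 (limma adjusted p = 0.00302), and the zinc finger gene Zfp334 fell by 2.78 (0.000107). Around Adamts13, also on chromosome 2, 8 of 29 such genes rose and none fell, with a median of 0.35. The neighbourhoods of Mmp9 and Adamts13 were picked from those of the 44 members after their values were seen. Chromosome 1, which carries Adamts4, had a median of 0.39 over 723 genes, but the 39 such genes within 1 Mb of Adamts4 had 0.02. Chromosome 5, which carries Adamts3 and Mmp17, had -0.24 over 784 genes. The median was -0.40 over 9 genes within 1 Mb of Adamts3 and -0.18 over 21 genes within 1 Mb of Mmp17. Chromosome 18, which carries Adamts19, had -0.36 over 307 genes, and the 3 genes within 1 Mb of Adamts19 had -0.26.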
